A study of Mus musculus with 2 samples.

Results

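The mitochondrial ribosomal protein genes were followed through single heart muscle cells taken from wild-type adult mice of the C57BL/6 strain. They were taken as every protein-coding mouse gene whose symbol starts with Mrpl or Mrps followed by a number. The annotation (GENCODE M21, genome build GRCm38) holds 78 such genes, and 75 of them had a row in both tables of UMI counts, out of 24522 gene rows in one study and 22679 in the other. Mrpl2, Mrpl53 and Mrps18b were not analysed here. Of the 75, 25 encode proteins of the small subunit and 49 of the large subunit. Mrps18a and Mrps30 are counted with the large subunit despite their names, and Mrps36 belongs to neither, since its protein is a component of the 2-oxoglutarate dehydrogenase complex. By protein family, 46 members have a bacterial counterpart and 29 are specific to mitochondria, with Mrps36 counted among the 29.

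Cells came from enzyme-perfused hearts, were sorted on a cytometer for large particles and were profiled with SCRB-seq, which counts 3' ends of polyadenylated RNA by unique molecular identifiers (UMIs). The multichamber study held unfixed cells of the 4 chambers of mice about 3 months old, labelled LA and RA for the left and right atrium and LV and RV for the ventricles, in 4 libraries (A to D). The second study held adult ventricular cells sorted live or after ethanol fixation, with no library named. After a filter of at least 1000 gene UMIs and 500 genes per cell, 56 LA, 44 RA, 91 LV, 90 RV, 31 live and 35 fixed cells remained. The labels tie no cell to an animal. Each group is therefore 1 pool, no difference between groups could be tested, and all p-values are left out. Every interval below is an exact 95% Clopper-Pearson interval that covers counting error only. All 84 cell barcodes occur in more than 1 library.

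Mitochondria keep a small genome of their own, and its messenger RNAs, which encode core subunits of the respiratory chain and of ATP synthase, are translated inside the organelle by a dedicated ribosome. The RNA of that ribosome is made in the mitochondrion, but all of its proteins are encoded in the nucleus, translated in the cytosol and imported. Heart muscle is among the tissues richest in mitochondria, and inherited defects of several of these proteins, among them MRPL3, MRPL44, MRPS22 and MRPS14, are known causes of cardiomyopathy.

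The 75 genes lie on 17 chromosomes, and many share a start region with a neighbour. For 17 of them (22.7%), another protein-coding gene starts on the opposite strand within 1000 bases upstream, against 7.23% of 21938 nuclear protein-coding genes in the annotation. Examples are Fau, whose product includes a cytosolic ribosomal protein, beside Mrpl49, the proteasome subunit gene Psma2 beside Mrpl32, the zinc finger gene Zfp189 beside Mrpl50, and the mitochondrial seryl-tRNA synthetase gene Sars2 beside Mrps12. No function shared by the 17 neighbours was looked for. A pair of members also starts head to head: the RefSeq start sites of Mrps11 and Mrpl46 on chromosome 7 lie 42 bases apart on opposite strands and their promoter windows share 141 bases. This pair was chosen after its values were seen, as were the promoters shown here.

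Promoter windows, from 250 bases before to 50 bases after the start, were found in RefSeq (build GRCm38.p6) for 66 of the 75 members. They were searched on both strands for short runs known to be bound by factors that act at genes of this class. The run GCATGCGC of nuclear respiratory factor 1 (NRF1) was in 10.6% of member windows and in 3.60% of all 17491 windows of protein-coding genes. The ETS-family run CCGGAAG was in 34.8% against 11.9%, and the YY1 run AAGATGG in 19.7% against 6.37%. At least 1 of the 3 was in 35 of 66 windows (53.0%) against 20.0% of all windows, while a TATAAA run was in 6.06% against 13.3%. Member windows held a median of 21 CG pairs against 13 for all windows, and the base composition (58.2% against 56.3% GC) bears on such counts. A match is a description of letters, not of binding. Members with a match had a median level of 74.4 CPM and those without one of 68.8 CPM in the chambers. The windows below belong to members that the values turn on: Mrpl42 was the most abundant member, Mrpl22 and Mrpl49 were among those furthest apart between pools, Mrpl32 held the most NRF1 matches, Mrps12 shares its start region with Sars2, and Mrps11 and Mrpl46 form the head-to-head pair. Capitals mark every NRF1, ETS or YY1 match on either strand; in Mrpl32, 2 of the NRF1 matches overlap in 1 run. All are written 5' to 3' on the gene's strand. The window of Mrpl42 is chr10:95501900-95502199 (minus strand), with a YY1 match after the start, and that of Mrpl22 is chr11:58171414-58171713 (plus), with an ETS and an NRF1 match. Mrpl49 is shown at chr19:6057706-6058005 (minus) with 2 YY1 matches, and Mrpl32 at chr13:14612988-14613287 (minus) with 1 YY1 and 4 NRF1 matches. Mrps12 is shown at chr7:28741772-28742071 (minus) with a YY1 and an ETS match, Mrps11 at chr7:78782881-78783180 (plus) with a YY1 match, and Mrpl46 at chr7:78783040-78783339 (minus) with none.
Mrpl42: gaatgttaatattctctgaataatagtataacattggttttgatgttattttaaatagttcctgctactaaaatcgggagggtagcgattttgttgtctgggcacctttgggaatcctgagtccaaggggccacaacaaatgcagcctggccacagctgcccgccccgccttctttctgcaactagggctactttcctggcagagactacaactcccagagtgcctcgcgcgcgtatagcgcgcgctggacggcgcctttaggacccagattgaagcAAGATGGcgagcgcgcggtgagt
Mrpl22: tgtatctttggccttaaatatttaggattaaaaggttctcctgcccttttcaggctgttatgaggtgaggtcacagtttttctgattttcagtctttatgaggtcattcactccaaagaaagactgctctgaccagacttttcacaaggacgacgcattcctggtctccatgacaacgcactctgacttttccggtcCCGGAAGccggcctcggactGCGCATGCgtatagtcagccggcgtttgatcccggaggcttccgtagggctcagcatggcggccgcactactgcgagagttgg
Mrpl49: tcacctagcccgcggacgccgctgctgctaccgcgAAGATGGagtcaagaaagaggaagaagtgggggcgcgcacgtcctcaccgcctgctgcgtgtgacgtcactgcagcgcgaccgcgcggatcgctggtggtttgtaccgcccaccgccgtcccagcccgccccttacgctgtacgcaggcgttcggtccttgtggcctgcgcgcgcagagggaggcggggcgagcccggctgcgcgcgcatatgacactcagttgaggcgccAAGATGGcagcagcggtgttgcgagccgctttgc
Mrpl32: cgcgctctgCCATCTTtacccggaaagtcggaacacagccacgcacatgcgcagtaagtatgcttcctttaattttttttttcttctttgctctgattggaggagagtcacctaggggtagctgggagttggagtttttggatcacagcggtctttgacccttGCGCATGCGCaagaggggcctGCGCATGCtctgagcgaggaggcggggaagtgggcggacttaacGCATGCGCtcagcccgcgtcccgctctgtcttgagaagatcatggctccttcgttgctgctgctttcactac
Mrps12: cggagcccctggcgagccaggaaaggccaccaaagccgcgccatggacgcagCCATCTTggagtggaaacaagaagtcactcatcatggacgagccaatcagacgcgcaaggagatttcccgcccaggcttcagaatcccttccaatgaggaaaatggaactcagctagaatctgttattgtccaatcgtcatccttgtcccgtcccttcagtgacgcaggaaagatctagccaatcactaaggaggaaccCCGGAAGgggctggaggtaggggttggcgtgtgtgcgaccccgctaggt
Mrps11: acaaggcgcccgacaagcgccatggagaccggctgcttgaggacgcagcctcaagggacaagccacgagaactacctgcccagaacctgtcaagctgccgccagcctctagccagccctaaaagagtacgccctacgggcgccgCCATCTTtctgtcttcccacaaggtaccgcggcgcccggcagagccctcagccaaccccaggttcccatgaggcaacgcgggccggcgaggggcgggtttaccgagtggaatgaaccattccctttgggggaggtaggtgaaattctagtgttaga
Mrpl46: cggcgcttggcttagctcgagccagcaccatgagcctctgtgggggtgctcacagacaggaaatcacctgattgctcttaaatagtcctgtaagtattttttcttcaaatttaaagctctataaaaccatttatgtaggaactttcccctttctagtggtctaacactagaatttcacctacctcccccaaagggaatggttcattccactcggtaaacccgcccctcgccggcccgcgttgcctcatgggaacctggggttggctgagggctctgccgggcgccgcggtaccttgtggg

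Atrial myocyte markers were scarce in the cells labelled atrial. The 4 atrial myocyte markers summed to 96.4 CPM in LA and 0 in RA (0 of 470095 UMIs, where 3 counts would be 6.38 CPM), against 8.18 CPM in LV and 5.69 CPM in RV. The 8 genes listed for ventricular myocytes were Myl2, Myl3, Myh6, Tnnt2, Tnni3, Actc1, Ttn and Ryr2. They summed to 64244 CPM in LA and 85929 CPM in RA, against 75380 and 78882 CPM in LV and RV. Not all of them are specific to ventricles, so their sum does not tell atrial from ventricular myocytes. All atrial values below are therefore those of cells labelled atrial. RNA of other cells also differed with the label. The 6 erythroid markers all had UMIs in every chamber and summed to 26774 CPM in LA and 49894 CPM in RA against 12065 and 12988 CPM in LV and RV. The 5 mesothelial markers summed to 1672 CPM in LA, 183 CPM in RA, 49.9 CPM in LV and 63.2 CPM in RV, all 5 with UMIs in every chamber, and the 6 fibroblast markers (5 of 6 with UMIs in LA) to 578, 89.3, 169 and 211 CPM. Endothelial markers (9 of 9 with UMIs in each chamber) summed to 334, 140, 476 and 476 CPM, mural markers (4, 4, 5 and 5 of 5) to 123, 183, 256 and 217 CPM and macrophage markers (3, 4, 5 and 6 of 6) to 6.43, 40.4, 19.1 and 19.7 CPM. Their part in single members' values was not tested. Leaving out cells over 2% non-myocyte RNA kept 39 of 100 atrial-labelled cells (30 LA and 9 RA) and 142 of 181 ventricle-labelled cells. In the cells kept, the members' summed level was at a ratio of 1.01 between atrial and ventricular pools. There 17 members were at least 1.5-fold apart, against 8 in all cells.

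All 75 members had at least 1 UMI in each of the 6 pools. Levels are UMIs per 1000000 nuclear-encoded UMIs (CPM), a total that leaves out RNA made in the mitochondrion. Because SCRB-seq counts 3' ends, a UMI count does not grow with transcript length, and the rank correlation of level with exon length over members was -0.17. In the 4 chambers together the mean level of a member ranged 47.7-fold, with a median of 74.4 CPM and quartiles of 38.1 and 98.8 CPM. The 6 most abundant members held 27.9% of the summed level and 17 members held 50%.

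Mrpl42 (ENSMUSG00000062981, chr10:95480805-95501940), a large-subunit protein without bacterial counterpart, had the highest chamber mean (452 CPM). It stood at 377 CPM (339 to 418) in LA, 487 CPM (426 to 554) in RA, 468 CPM (442 to 495) in LV and 476 CPM (452 to 502) in RV, so that LA was the low pool. It was also the highest in the second study, at 233 CPM in live and 207 CPM in fixed cells. Mrpl30, the homolog of bacterial L30, followed at 391, 319, 387 and 424 CPM in LA, RA, LV and RV. Mrps24, the homolog of bacterial S3 at the messenger RNA entry, stood at 303, 338, 331 and 344 CPM. Mrpl14, Mrpl18 and Mrpl28, homologs of the like-numbered bacterial proteins, completed the top 6 with chamber means of 255, 239 and 213 CPM. Mrpl18 was highest in LA (324 CPM) and between 199 and 223 CPM in the other chambers.

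The lowest members were Mrps2 (mean 9.47 CPM), Mrpl24 (11.1 CPM), Mrps22 (17.1 CPM), Mrpl22 (18.01 CPM), Mrps34 (20.2 CPM) and Mrpl23 (22.1 CPM). Mrpl22, Mrpl23 and Mrpl24 are homologs of the bacterial proteins that line the exit of the peptide tunnel. Mrps2 rested on 9 and 1 UMIs in the atrial pools LA and RA and on 37 and 35 in LV and RV, so its order among the lowest members is not resolved. The counts of 4 members depend on how reads at shared 3' ends were assigned. The last 300 exon bases of Mrpl19, Mrpl24, Mrps25 and Mrps34 are overlapped over more than 50% by Gcfc2, Rrnad1, Nr2c2 and Nme3, respectively, the last on the same strand. Their median level was 23.3 CPM against 76.3 CPM for the other members. Processed copies of Mrpl23, Mrpl48 and Mrps36 also drew UMIs, with 261 at Mrpl23-ps1 and 55 at Mrps36-ps1 in the chambers and 221 and 272 in the second study, so the levels of these 3 parent genes are uncertain.

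**Figure D1:**
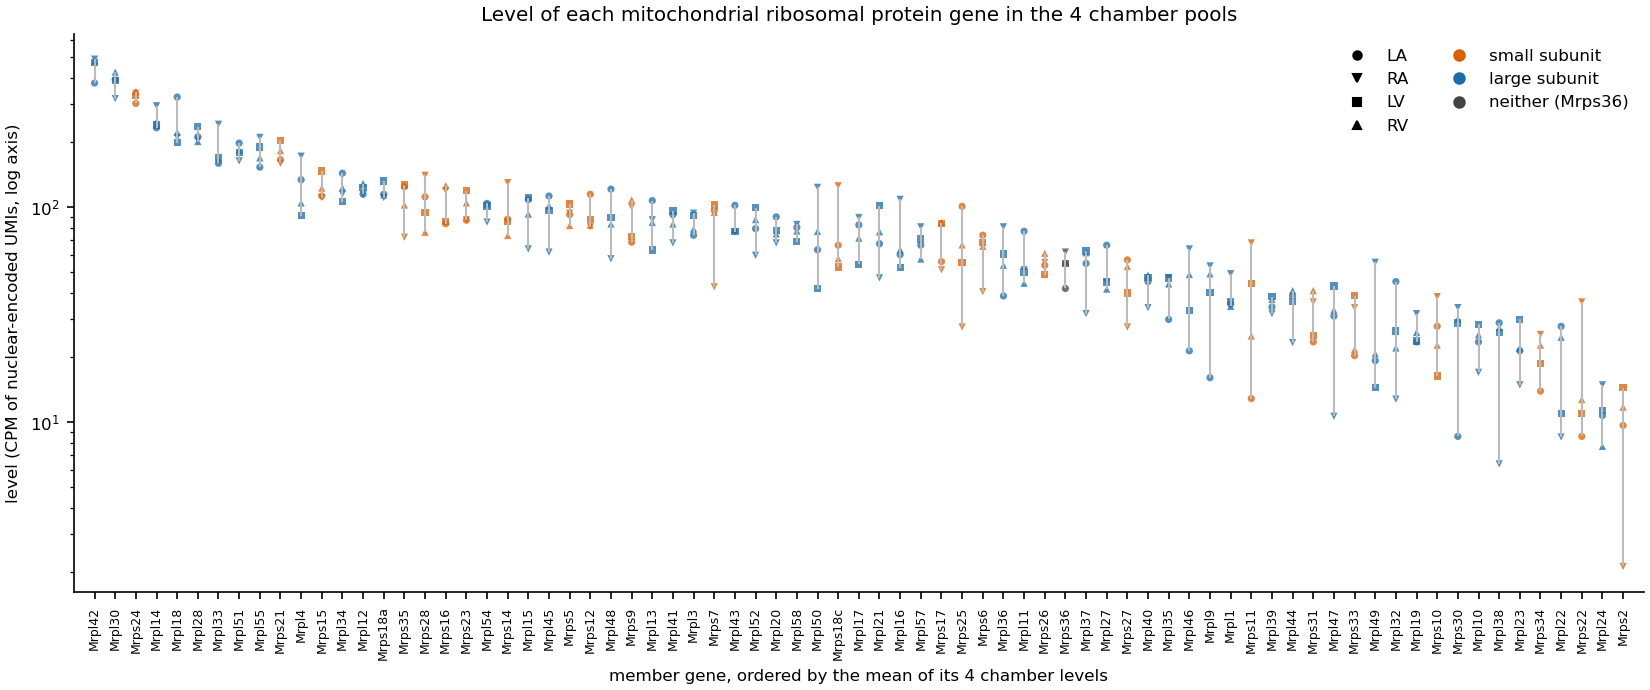
Level of each of the 75 members in the LA, RA, LV and RV pools, in CPM of nuclear-encoded UMIs on a log axis, ordered by the chamber mean; symbols are chambers, colours are subunits, and grey lines span the 4 pools. Mrpl42 leads in RA, LV and RV and Mrpl30 in LA, and the widest spans belong to low members such as Mrps2, with 1 UMI in RA.

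The order of the members was much the same in every pool. Spearman's rho over the 75 members was 0.95 between LV and RV, 0.94 between pooled atria and pooled ventricles, 0.84 between live and fixed cells and 0.78 between LA and RA, the shallowest pair. Between the chamber means and the means of the second study rho was 0.88. These are correlations across genes, which are not independent replicates. Mrps36 ranked 48 among the members in the chambers, at 41.8 to 61.7 CPM, and 8 in the second study, at 86.9 CPM in live and 94.9 CPM in fixed cells. Only its ranks are set side by side, since the totals of the studies differ.

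Members with a role beyond the ribosome's core spread over much of the list. Mrpl12, whose protein forms the stalk that recruits translation factors and also binds the mitochondrial RNA polymerase, stood at 115 CPM in LA, 115 CPM in RA, 123 CPM in LV and 128 CPM in RV. Mrpl58, a peptidyl-tRNA hydrolase that frees stalled ribosomes, stood at 80.3, 83.0, 69.0 and 77.3 CPM. Of the genes for the bacterial S18 homologs, Mrps18a stood at 115, 111, 132 and 114 CPM, and Mrps18c at 66.4, 126, 52.6 and 57.6 CPM with RA apart from the rest. Members with a bacterial counterpart had a median of 80.7 CPM and mitochondria-specific ones of 54.5 CPM, while small- and large-subunit members had medians of 75.5 and 74.4 CPM.

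Summed over all members, the level was nearly the same in all 4 chambers. It was 6674 CPM (6510 to 6841) in LA, 6720 CPM (6488 to 6958) in RA, 6678 CPM (6579 to 6779) in LV and 6695 CPM (6603 to 6788) in RV, from 6232, 3159, 17137 and 20008 UMIs. The genes thus held 0.667 to 0.672% of nuclear-encoded UMIs. In the second study the sum was 2971 CPM (2884 to 3060) in live and 2996 CPM (2928 to 3066) in fixed cells. Levels of the 2 studies are not compared, since unprocessed pseudogenes took 25.9% and 21.8% of nuclear-encoded UMIs in live and fixed cells against 0.383 to 0.582% in the chambers. Processed pseudogenes are not in these shares. Within protein-coding, non-haemoglobin UMIs the sums were 8032, 8026, 7874 and 7964 CPM in LA, RA, LV and RV and 4942 and 4787 CPM in live and fixed cells.

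In the pools the 2 subunits kept their proportion. Small-subunit genes gave 29.5% of member UMIs in LA (28.4 to 30.7%), the lowest share, and 31.1% in LV (30.4 to 31.8%), the highest. RA followed with 30.4% (28.8 to 32.0%) and RV with 30.5% (29.9 to 31.2%), and live and fixed cells with 30.7% (29.4 to 32.1%) and 30.8% (29.7 to 31.9%). All 6 intervals overlap. Single libraries varied more, with 62 of 378 member UMIs from small-subunit genes in LA library D and 203 of 542 in LA library C. The atrial to ventricular ratio of the small subunit was 1.06, 1.02, 0.915 and 0.619 (0.509 to 0.746) in libraries A, B, C and D. That of the large subunit was 1.14, 1.02, 0.917 and 0.972 (0.878 to 1.07). The share from mitochondria-specific members was 31.1 to 33.8% in the chambers, 37.9% in live cells and 32.8% in fixed cells. Mrps36, which belongs to neither subunit, is counted in it. That gene gave 129 of the 1669 mitochondria-specific UMIs in live cells, 230 of 2379 in fixed cells and 140 of 5673 in LV.

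Single libraries spread more widely than the pools. In LV the summed level was 6192, 6279, 7181 and 7058 CPM in libraries A, B, C and D, and in RV it was 7202, 6590, 6646 and 6433 CPM. In LA it was 7596, 6454, 4923 and 6490 CPM, and in RA 6999, 7452, 6778 and 4550 CPM. The lowest atrial values were those of 6 LA cells in library C and 8 RA cells in library D, while RA in library B, also 8 cells, was the highest of the RA values. In LA library C, 1 cell at 3933 CPM held 58995 of the 110102 nuclear-encoded UMIs. The near equality of the chamber pools is therefore closer than the spread between libraries of 1 chamber.

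**Figure D2:**
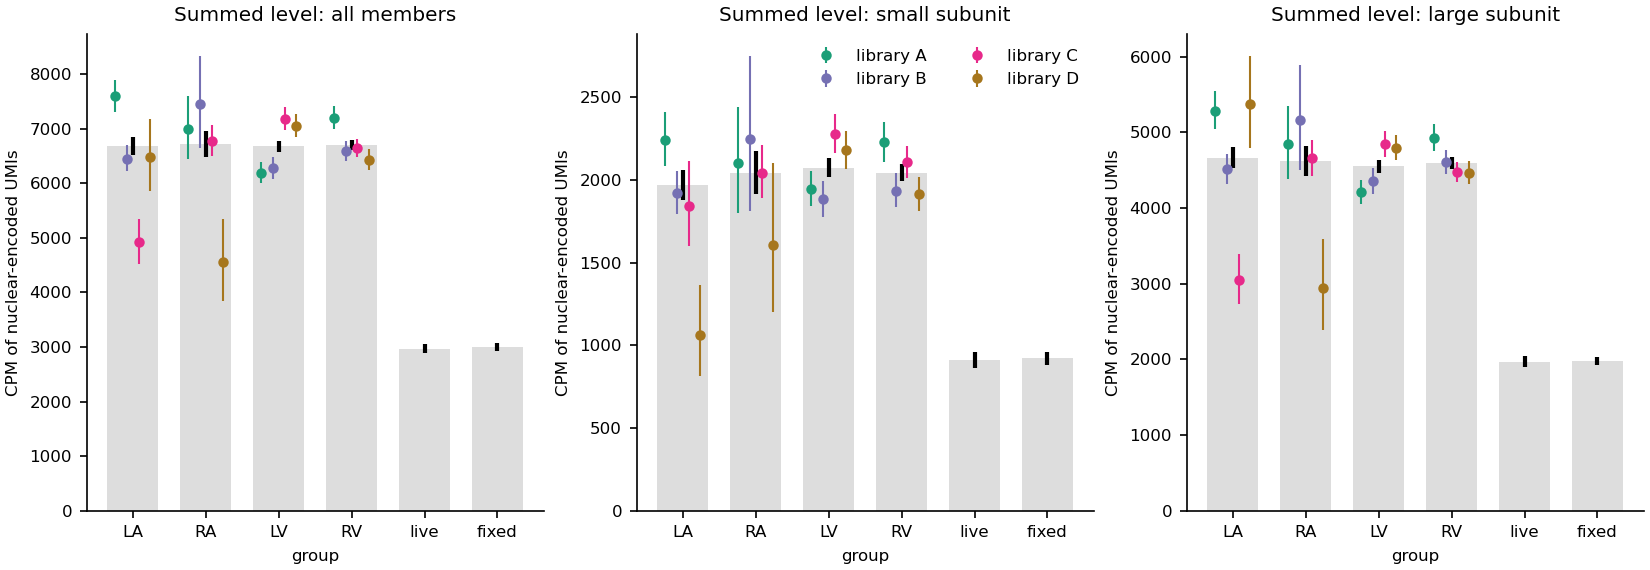
Summed level of all members, of the small-subunit and of the large-subunit members by group, in CPM of nuclear-encoded UMIs; grey bars are pools with the counting interval as a black line, and coloured points are libraries A to D with theirs. The 4 chamber bars lie between 6674 and 6720 CPM for all members, while single libraries run from 4550 to 7596 CPM.

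The first comparison set atrial-labelled against ventricle-labelled cells. The summed level was 1.00 times as high in the atrial pool (0.978 to 1.02). Within libraries the ratio was 1.12 (1.07 to 1.17) in A, 1.01 (0.973 to 1.06) in B, 0.917 (0.879 to 0.957) in C and 0.861 (0.787 to 0.940) in D, so the direction differed between libraries. Of the 75 members, 3 were at least 1.5-fold higher and 5 at least 1.5-fold lower, against 17% and 23.2% of all 11682 genes with at least 30 UMIs. The split was 5 and 5 with TMM scaling, 11 and 2 with all gene UMIs as the total, 2 and 21 with each cell weighted equally, and 7 and 15 from reads, so the direction of the split depends on the setting. Here and below, shares of all genes were computed in the main setting only, so counts of members in other settings have no background beside them. With the further demand that the counting interval leave out a ratio of 1, 7 members (9.33%) passed against 28.6% of all genes. Members carry more UMIs than most genes. Among genes with 100 to 1000 UMIs, 30.5% of 6225 were past 1.5-fold, against 7 of 62 members (11.3%). The median log2 ratio was -0.08 for members and -0.07 for all genes.

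The lower members in the atrial pool were Mrps2, Mrps30, Mrpl9, Mrps17 and Mrpl47, and of these Mrpl9, Mrps17 and Mrpl47 were lower in all 4 libraries. Mrps17 (ENSMUSG00000034211, chr5:129715497-129722556), a homolog of bacterial S17, stood at 55.7 CPM in LA and 51.1 CPM in RA against 83.8 CPM in LV and 84.7 CPM in RV, a ratio of 0.643 (0.497 to 0.820). By library, its atrial level was 61.4, 41.6, 56.6 and 76.7 CPM and its ventricular level 93.7, 77.4, 86.9 and 78.9 CPM in A, B, C and D. Both atrial pools lay below both ventricular pools, with library D nearly equal. With each cell weighted equally the ratio was 0.920. Mrpl9 (chr3:94443318-94451130), a homolog of bacterial L9, had 28.5 CPM in the atrial and 44.8 CPM in the ventricular pool, a ratio of 0.636 (0.443 to 0.890). The atrial value joined 16.1 CPM in LA and 53.2 CPM in RA, which lie on opposite sides of the ventricles. Mrpl47 (chr3:32725397-32737605), a homolog of bacterial L29, stood at 24.2 against 37.6 CPM, a ratio of 0.644 (0.434 to 0.928), with 31.1 CPM in LA and 10.6 CPM in RA from 5 UMIs. None of these 3 stayed 1.5-fold apart with every library left out in turn: Mrps17 was at 0.703 without library B, and Mrpl9 and Mrpl47 were at 0.751 and 0.728 without library A.

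Mrps30, a large-subunit protein, stood at 8.57 CPM in LA, 34.0 CPM in RA, 28.8 CPM in LV and 30.1 CPM in RV, so the atrial ratio of 0.579 (0.361 to 0.892) came from LA. Without library C it was 0.324, and without library B 0.765. The interval of Mrps2 (ratio 0.550, 0.253 to 1.07) included 1, and without library A its ratio was 0.375.

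Mrps18c, Mrps10 and Mrpl49 were higher in the atrial pool, and none of them was so in all 4 libraries. Mrpl49 (chr19:6053622-6057785) stood at 19.3 CPM in LA, 55.3 CPM in RA, 14.4 CPM in LV and 20.7 CPM in RV, a ratio of 1.76 (1.20 to 2.53) that was 1.02 with cells weighted equally and 1.24 without its top cell. Here and below, the top cell is the one holding most UMIs of a member. Without it means that only the member's UMIs in that cell were taken out. The cell's other UMIs stayed in the total, so the side of the top cell is always lowered. Mrps10, a homolog of bacterial S10, stood at 27.8, 38.3, 16.4 and 22.8 CPM, a ratio of 1.58 (1.09 to 2.26), with both atrial pools above both ventricular pools, and 1.30 without library A. Mrps18c reached 1.56 (1.25 to 1.93). It was 1.25 without its top cell. Without library C, which held 64 of its 121 atrial UMIs, it was 1.11, and without library B it came just under 1.5-fold.

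The left and right atrial pools could be compared for 69 members with at least 30 UMIs. Of the 69, 16 were at least 1.5-fold higher and 12 at least 1.5-fold lower in LA, against 31.6% and 17.4% of all 5715 genes, and with TMM scaling the split was 14 and 16. Without the top cell of each member it was 23 and 7. With an interval that left out 1, 22 members (31.9%) passed against 35.4% of all genes, and between 100 and 1000 UMIs 11 of 41 members (26.8%) passed 1.5-fold against 32.6% of 1836 genes. The summed level was 0.993 times as high in LA (0.951 to 1.04). By library the ratio ran 1.09, 0.866, 0.726 and 1.43 in A to D, and without the top cell of each member it was 1.21.

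The furthest members below 1 were Mrps11 (12.9 against 68.1 CPM, ratio 0.189, 0.0885 to 0.377), Mrpl9 (0.302), Mrpl46 (0.336) and Mrpl49 (0.349). The furthest above 1 were Mrpl38 (28.9 against 6.38 CPM, ratio 4.53, 1.39 to 23.3), Mrps25 (3.64), Mrpl32 (3.52) and Mrpl22 (3.27). Of these 8, none lay on 1 side in all 4 libraries. Among all 28 members past 1.5-fold between LA and RA, 3 did so. Mrpl38 had 3 UMIs in RA, Mrpl22 had 4 and Mrpl32 had 6. Library C held 29 of the 32 Mrps11 UMIs and 22 of the 30 Mrpl46 UMIs in RA, and without it neither gene reached 30 UMIs. With cells weighted equally Mrpl46 stood at 1.28 and Mrpl49 at 0.995. Of Mrps25, 63 of 94 LA UMIs came from library B, and its ratio without that library was 2.24.

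The ventricles gave the deepest comparison, with 91 LV and 90 RV cells and 17137 and 20008 member UMIs. Only 2 of 75 members were at least 1.5-fold higher in LV and 3 at least 1.5-fold lower, against 16.9% and 11.9% of 10812 genes. All 5 had an interval that left out 1 (6.67%), against 22.3% of all genes. Between 100 and 1000 UMIs, 5 of 63 members (7.94%) were past 1.5-fold and 17.5% of 5427 genes. The summed ratio was 0.998 (0.977 to 1.02), with 0.860, 0.953, 1.08 and 1.10 in libraries A to D. With TMM scaling 9 members passed, 2 higher and 7 lower, since that scaling set the summed ratio to 0.945.

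Higher in LV were Mrps33 and Mrps11, both of the small subunit. Mrps33 (ENSMUSG00000029918, chr6:39801804-39810988), specific to mitochondria, stood at 38.6 CPM (31.4 to 47.0) in LV and 21.7 CPM (16.8 to 27.7) in RV, a ratio of 1.77 (1.28 to 2.46). By library its LV level was 25.1, 36.7, 37.1 and 56.1 CPM and its RV level 11.4, 25.1, 17.2 and 33.0 CPM. LV was above RV within every library, while the 2 sets of library values overlapped. Mrps11 (ENSMUSG00000030611, chr7:78783119-78792989), the homolog of bacterial S11 on the platform of the small subunit, stood at 44.0 CPM (36.3 to 52.9) in LV and 25.1 CPM (19.7 to 31.5) in RV, a ratio of 1.75 (1.30 to 2.38). Its LV level was 35.4, 30.0, 41.7 and 68.6 CPM against 19.5, 20.9, 25.9 and 33.0 CPM in RV, again higher in LV within every library.

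Lower in LV were Mrpl22, Mrpl50 and Mrps31. Mrpl22 (ENSMUSG00000020514, chr11:58171661-58179565), a tunnel protein, stood at 10.9 CPM (7.25 to 15.8) in LV and 24.8 CPM (19.4 to 31.1) in RV, a ratio of 0.441 (0.275 to 0.689). By library it had 14.8, 10.0, 4.63 and 14.04 CPM in LV and 16.3, 22.3, 22.6 and 37.1 CPM in RV, and every LV value lay below every RV value. The values rest on 28 and 74 UMIs. Mrpl50 (chr4:49512596-49521093), specific to mitochondria, stood at 41.7 CPM in LV and 77.0 CPM in RV, a ratio of 0.542 (0.427 to 0.684), with equal levels in library D (59.3 and 59.1 CPM) and lower LV levels in the other three. Mrps31 (chr8:22411361-22429665), also specific to mitochondria, stood at 25.3 against 40.8 CPM, a ratio of 0.621 (0.452 to 0.845). It was lower in LV in all 4 libraries, but without library B the ratio was 0.757, past 1.5-fold no longer, as it was without the top cell (0.701). Mrpl22, Mrpl50, Mrps33 and Mrps11 stayed at least 1.5-fold apart with any 1 library left out. In other settings, Mrps33 was at 1.41 from reads, and Mrps31 at 0.751 with equal weight per cell and 0.746 without cells over 2% non-myocyte RNA.

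Mrps11 and Mrpl46, whose start sites lie 42 bases apart, did not move together in every comparison. Between the ventricles Mrps11 was at 1.75 and Mrpl46 at 0.683 (0.516 to 0.898). Between fixed and live cells Mrps11 was at 0.422 and Mrpl46 at 2.45, while between the atria both were lower in LA.

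**Figure D3:**
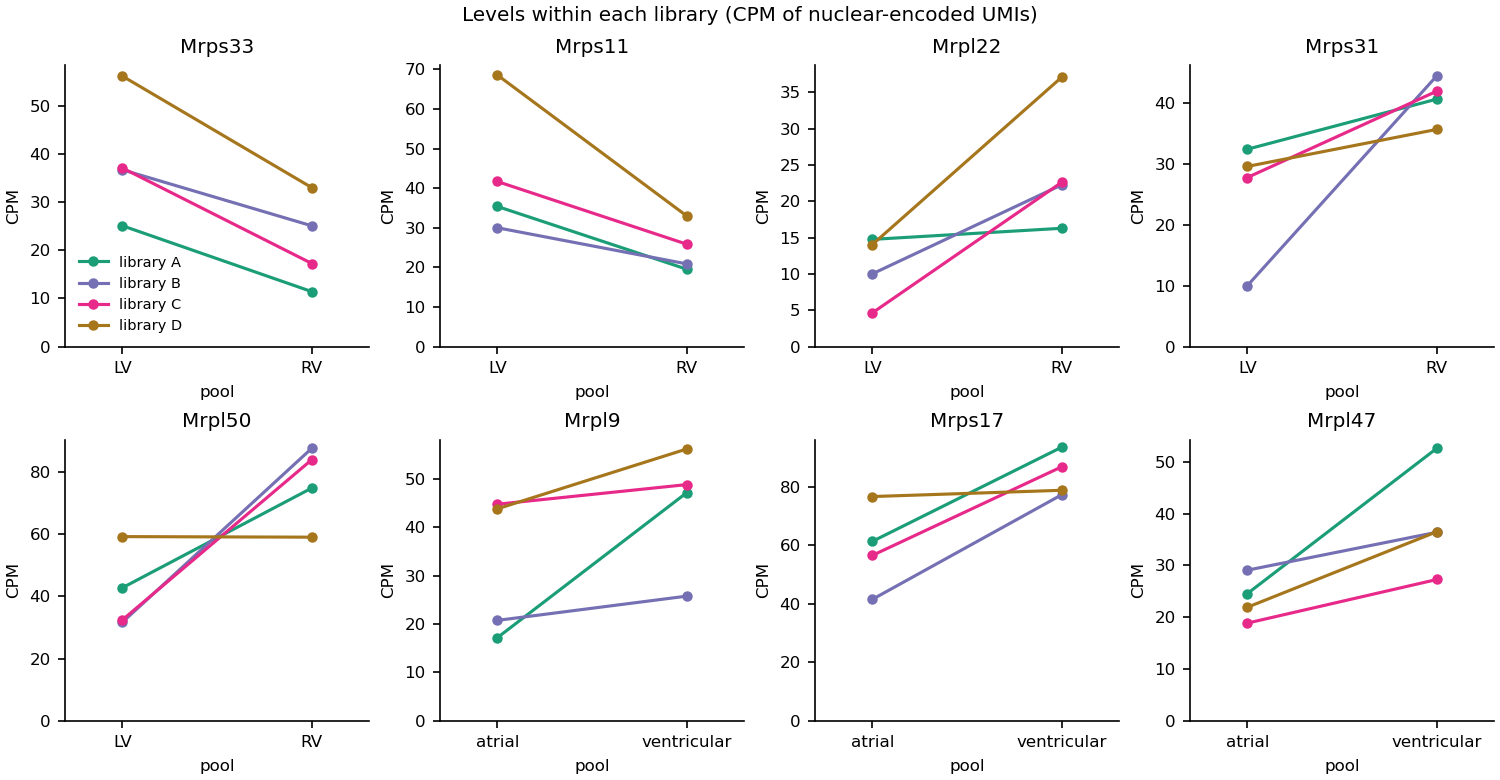
Levels within libraries A to D, in CPM of nuclear-encoded UMIs, of the 5 members at least 1.5-fold apart between LV and RV and of the 3 lower in the atrial pool of every library; each line joins the 2 pools of 1 library. Mrps33 and Mrps11 slope down from LV to RV and Mrpl22 and Mrps31 slope up in all 4 libraries, while Mrpl50 is flat in library D.

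Ethanol fixation was compared in ventricular cells of the second study. The summed level was 1.01 times as high in fixed as in live cells (0.971 to 1.05), while the median log2 ratio of all 7860 genes with at least 30 UMIs was -0.38. Scalings that centre on the bulk of genes therefore moved the members up, to 1.42 with TMM and 1.49 with median-of-ratios factors, and a total of all gene UMIs gave 1.20, since mitochondrially encoded RNA was 28.3% of UMIs in live and 14.9% in fixed cells. The median log2 ratio of members was -0.09. Of 70 members with at least 30 UMIs, 16 were at least 1.5-fold higher and 16 at least 1.5-fold lower in fixed cells, against 10.8% and 40% of all genes. This split was 27 higher and 2 lower with TMM, 31 and 2 with median-of-ratios factors, and 20 and 7 with all gene UMIs as the total. No share of all genes was computed under these settings. With an interval that left out 1, 26 members (37.1%) passed against 41.3% of all genes. Between 100 and 1000 UMIs, 15 of 40 members (37.5%) were past 1.5-fold against 42.5% of 3006 genes.

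Many of these ratios moved with the UMIs of a single cell. Without the top cell of each member, as defined above, 19 members were past 1.5-fold, and 15 of the 32 stayed past it on the same side. Since that setting always lowers the side of the top cell, part of this change is built in. No library is named in this study, so no within-library value can be given.

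Higher in fixed cells, Mrpl49 (23.1 against 5.39 CPM, from 56 and 8 UMIs) had the largest ratio of the 70 members, 4.28 (2.03 to 10.4), and 3.21 without its top cell. Mrps14 (chr1:160195215-160202170), a homolog of bacterial S14 and a cardiomyopathy gene, stood at 77.1 CPM (66.5 to 89.0) in fixed and 22.2 CPM (15.3 to 31.2) in live cells, a ratio of 3.47 (2.39 to 5.19) that was 3.12 without its top cell. Mrps26, specific to mitochondria, followed at 31.3 against 10.8 CPM (2.91, 1.68 to 5.34), and Mrpl46 at 18.1 against 7.41 CPM (2.45, 1.24 to 5.26). Among abundant members, Mrpl14 stood at 128 against 70.1 CPM (1.82, 1.46 to 2.30) and Mrpl28 at 116 against 66.7 CPM (1.74, 1.38 to 2.21). Mrpl50 and Mrps18c had ratios of 1.92 and 1.81, and stayed past 1.5-fold without their top cells. Mrpl16 and Mrps25, both at 1.84, came to 1.47 without theirs. The ratios of Mrpl11 (1.64), Mrpl17 (1.70), Mrpl35 (1.79), Mrpl41 (1.68) and Mrpl13 (1.53) dropped under 1.5 without the top cell, to between 1.05 and 1.36. Mrpl22 (2.45) rested on 6 live UMIs, and its interval included 1.

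Lower in fixed cells, Mrpl52 (chr14:54426909-54429756), specific to mitochondria, stood at 37.5 CPM (30.2 to 46.1) against 94.3 CPM (79.4 to 111) in live cells, a ratio of 0.398 (0.302 to 0.522) that was 0.449 without its top cell. Mrps11 stood at 8.25 against 19.5 CPM (0.422, 0.226 to 0.772). Mrpl44, an RNase III-like protein of the large subunit, stood at 13.6 against 28.3 CPM (0.481, 0.295 to 0.777), and 0.350 without its top cell. Mrps34 (0.521), Mrps6 (0.535), Mrpl34 (0.564), Mrpl38 (0.573) and Mrpl45 (0.571) followed; Mrpl45 resembles the yeast protein that docks the ribosome to the inner membrane. All 5 passed 1.5-fold no longer without their top cells. Mrpl57 moved from 0.523 to 0.904, Mrpl54 from 0.559 to 0.857, Mrps31 from 0.571 to 0.952 and Mrps30 from 0.634 to 1.18. Mrpl20, Mrps35 and Mrpl1 were at 0.612, 0.619 and 0.631 and stayed past 1.5-fold without their top cells, while Mrpl15 moved from 0.628 to 0.799.

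The members with a bacterial counterpart summed to 2015 CPM in the fixed pool against 1846 CPM in the live one, a ratio of 1.09 (1.04 to 1.14). Mitochondria-specific members, Mrps36 among them, summed to 981 and 1125 CPM, a ratio of 0.872 (0.819 to 0.929). Their median log2 ratio was -0.23, while that of members with a bacterial counterpart was -0.008. The higher sum of the latter is thus not a shift of the whole set. Other scalings were not run for these 2 sets. The summed levels of the 2 subunits did not differ in this way, with ratios of 1.01 (0.944 to 1.08) for the small and 1.00 (0.959 to 1.05) for the large subunit. Both pools held the 8 myocyte genes listed for ventricles, at 42875 CPM in live and 34359 CPM in fixed cells, and erythroid markers at 525 and 20.2 CPM, with 5 and 4 of 6 detected. The other 5 non-myocyte lists ranged from 1.65 CPM (mesothelial, fixed) to 78.8 CPM (endothelial, live).

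**Figure D4:**
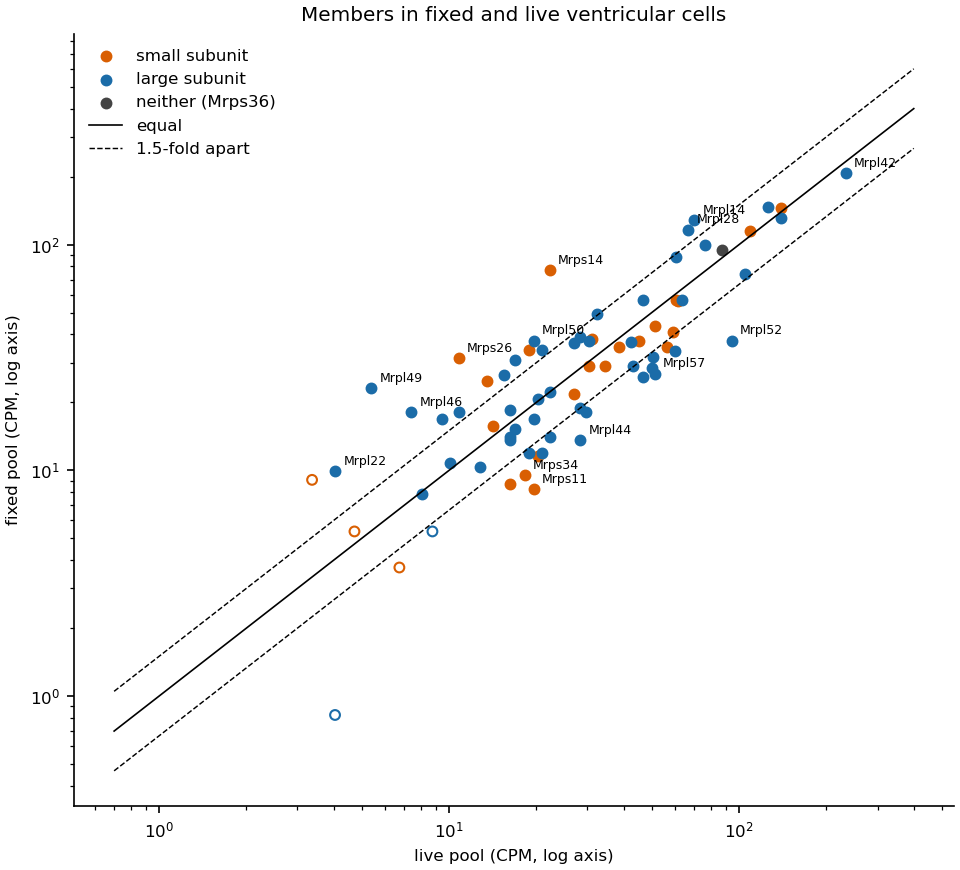
Level of each member in fixed against live ventricular cells, in CPM of nuclear-encoded UMIs on log axes, coloured by subunit; open symbols had under 30 UMIs, the solid line marks equal levels and the dashed lines a 1.5-fold difference. With this total, 16 members lie above the upper line and 16 below the lower line, while TMM scaling gave 27 and 2. Mrps14 and Mrpl49 are furthest above and Mrpl52 furthest below among members with at least 30 UMIs.

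The rest of the mitochondrial translation pathway was read beside the members, each list by its summed level. The other proteins of the mitoribosome (Dap3, Ptcd3, Chchd1, Aurkaip1 and Gadd45gip1) summed to 417, 402, 390 and 385 CPM in LA, RA, LV and RV and to 171 and 158 CPM in live and fixed cells. Of these, 1 of 5 was past 1.5-fold between atrial and ventricular pools, Ptcd3, an RNA-binding small-subunit protein, at 14.2 against 35.6 CPM (0.400, 0.239 to 0.634). The 2 most abundant, Aurkaip1 and Chchd1, were at 1.25 and 1.13.

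Translation factors summed to 455, 700, 459 and 513 CPM in the chambers and were at 0.650 (0.562 to 0.753) between LA and RA. Tufm, the elongation factor Tu, stood at 150 against 234 CPM and Oxa1l, the membrane insertase, at 21.4 against 91.5 CPM there. Between fixed and live cells the list was at 0.804 (0.709 to 0.911), with Mtif2, an initiation factor, at 9.49 against 48.5 CPM and Taco1, a translational activator, at 26.8 against 12.1 CPM. Assembly factors summed to 345 to 357 CPM in the chambers. They were at 0.835 (0.730 to 0.954) between fixed and live cells, where the helicase gene Dhx30 stood at 7.42 against 35.7 CPM. Of these lists, 4 of 12 translation factors and 8 of 19 assembly factors with at least 30 UMIs were past 1.5-fold between atrial and ventricular pools, 2 and 4 of them higher, against 40.2% of all 11682 genes past it either way. These counts are near that background.

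Mitochondrial aminoacyl-tRNA synthetases were led by Lars2, at 1732 CPM in LA, 1157 CPM in RA, 1555 CPM in LV and 1519 CPM in RV. Between fixed and live cells this list was at 1.15 (1.10 to 1.20), and Lars2 held 6123 of its 6680 UMIs in fixed cells. Genes listed for mitochondrial transcription and RNA stability, among them the DNA replication genes Polg and Twnk, summed to 209, 302, 292 and 311 CPM in LA, RA, LV and RV. Their ratio of 0.795 (0.705 to 0.894) between atrial and ventricular pools came from LA, since RA lay between LV and RV. Between the atrial and ventricular pools Lrpprc, which stabilises mitochondrial messenger RNA, stood at 79.1 against 113 CPM.

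Respiratory-chain and cytosolic ribosome genes were read in the same way. The 25 nuclear-encoded oxidative phosphorylation genes were at 0.998 (0.988 to 1.01) between atrial and ventricular pools, 0.854 (0.839 to 0.870) between LA and RA, 1.01 (0.998 to 1.02) between LV and RV and 0.990 (0.975 to 1.00) between fixed and live cells. None of the 25 was past 1.5-fold between atria and ventricles or between LV and RV, and 1 was so in each of the other comparisons. The 76 cytosolic ribosomal protein genes were at 1.06 (1.05 to 1.07), 1.08 (1.06 to 1.10) and 1.03 (1.02 to 1.04) in the chamber comparisons and at 0.793 (0.777 to 0.809) between fixed and live cells. In that last comparison 22 of 75 were at least 1.5-fold lower and 2 higher, against 40% and 10.8% of all genes, with Rplp0 at 212 against 360 CPM. The counting interval of the members' ratio, 0.971 to 1.05, does not overlap that of the cytosolic genes. Both intervals leave out the spread between cells, and a difference between the 2 sets was not tested. Mitochondrially encoded messenger RNAs, per nuclear-encoded UMI, were at 0.654 (0.650 to 0.658) in fixed cells, at 0.871 between atrial and ventricular pools, at 0.919 between LA and RA and at 0.960 between LV and RV.

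In single cells the summed level varied far more than counting allows. Among the kept cells the lowest, median and highest levels were 1164, 7089 and 11365 CPM in LV, 1949, 6892 and 11632 CPM in RV, 791, 6854 and 11305 CPM in LA and 1860, 6013 and 9834 CPM in RA. In live cells they were 758, 2952 and 7227 CPM and in fixed cells 1149, 3163 and 8570 CPM. In cells with at least 20000 gene UMIs the variance of the level was 14.7 and 12.5 times the counting variance in LV and RV, and 18.4 and 29.9 times among live and fixed cells. Every kept cell held at least 1 member UMI. The median number of members detected per cell was 25.5 and 11.5 in the atrial pools LA and RA, 44 and 48 in LV and RV, and 27 and 38 among live and fixed cells. Thinned to 5000 gene UMIs per cell, with 20, 26, 2, 3, 0 and 1 shallower cells left out, the expected medians were 16.6, 16.3, 14.4, 14.4, 8.07 and 9.67.

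Cells with a larger share of member RNA also had a larger share of RNA of nuclear-encoded oxidative phosphorylation genes. Over cells with at least 20000 gene UMIs, Pearson's r was 0.75 over 76 LV cells, 0.73 over 80 RV cells, 0.71 over 23 live cells and 0.87 over 34 fixed cells, with Spearman's rho of 0.70, 0.56, 0.71 and 0.85. With cytosolic ribosomal protein RNA r was 0.44, 0.61, 0.74 and 0.77, and with gene UMIs per cell between -0.33 and -0.16. With the percent of mitochondrially encoded RNA it was 0.10, -0.32, -0.66 and 0.10 in the same order. Between cytosolic ribosomal protein RNA and oxidative phosphorylation RNA, r was 0.33, 0.61, 0.94 and 0.89 in LV, RV, live and fixed cells. Such a correlation was thus not particular to the members. Small- and large-subunit levels of the same cell had r of 0.54, 0.42, 0.47 and 0.32. These are descriptions across cells of 1 pool, in which both values share a library and a total, and a few LV and RV cells were low in both.

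**Figure D5:**
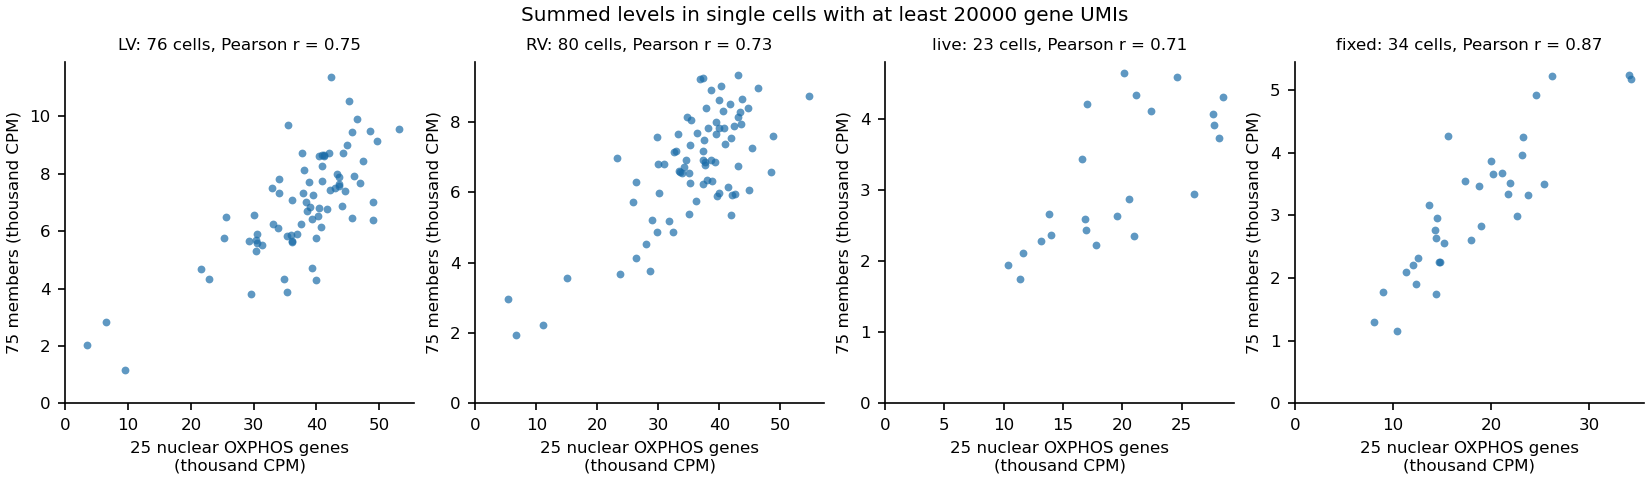
Summed level of the 75 members against that of 25 nuclear-encoded oxidative phosphorylation (OXPHOS) genes in single LV, RV, live and fixed cells with at least 20000 gene UMIs, both in 1000 CPM of nuclear-encoded UMIs; each point is 1 cell. Levels go up together in all 4 groups (Pearson's r 0.75, 0.73, 0.71 and 0.87), and a few LV and RV cells are low in both.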

How the data were processed

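SCRB-seq libraries of single mouse heart cells gave 2 deposited tables of UMI counts, with matching deposited tables of read counts. Per the submitters' processing notes, reads were aligned with STAR 2.5.4b and assigned with featureCounts on GRCm38. For the annotation release, the strand setting and the UMI tool, the answer is not given in the sources used here. Percent values per cell (spike-in and mitochondrial shares) are deposited by the authors per the file headers, were made in a way not stated there, and enter no result. Barcode columns were mapped to cells by the barcode and library in the labels, and 45 columns without a labelled cell were left out.

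Members and gene lists were chosen with earlier results of these data known. Ensembl IDs were named with GENCODE M21, and promoters came from RefSeq. The cell filter asked for 1000 gene UMIs and 500 genes, and UMIs of kept cells were summed per group and library. A level is UMIs per 1000000 nuclear-encoded UMIs (CPM), without a pseudocount. Ratios are called 1.5-fold apart only with at least 30 UMIs over both sides, and the floor for a group at 0 is 3 counts. Intervals are exact 95% Clopper-Pearson intervals for counting error only, and depth runs from 470095 to 2988611 nuclear-encoded UMIs per group. Without a named animal no test was run, and edgeR 4.0.16 (R 4.3.3) was used only for TMM factors. Other values were computed in Python 3.11.15 with numpy 2.4.6, pandas 2.3.3 and scipy 1.17.1, and figures with matplotlib 3.10.9. The ratio script was tested on simulated data.

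The genes named are the 6 highest and 6 lowest members, the 4 highest and 4 lowest ratios in each comparison, every member 1.5-fold apart (except between LA and RA), the S18 homologs and Mrpl12, Mrps36, Mrps30 and Mrpl58. Genes named from each other list were taken from its 2 most abundant genes and the 2 with the largest ratio either way in a comparison. Not all genes that this rule picks are named. The background of genes with 100 to 1000 UMIs and the head-to-head pair were chosen after seeing the data. From the cytosolic list, paralogs, pseudogenes and binding proteins were left out. Alternatives were other totals and scalings, equal weight per cell, read counts, other cell and UMI minimums, leaving out cells or libraries, and a pseudocount of 5 CPM. In the top-cell setting only the member's UMIs in that cell were taken out, and the cell stayed in the total.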

Additional observations from a re-analysis of the deposited data

Results flagged for a closer look

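Barcode columns that no label assigns to a cell held member UMIs. In the multichamber study they held 5 member UMIs among 592 gene UMIs, and in the live and fixed study 13 among 1222 gene UMIs. These columns enter no comparison. Within each chamber, the library values of the summed level and of each subunit gave 12 groups of 4 libraries, and in 0 of them was the highest or lowest library further from the others than Dixon's 95% limit allows, where chance gives about 1 in 20.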

How the results depend on the processing

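No paired test was run, since no cell is tied to an animal, and the ratios within libraries A to D compare the chambers library by library as a description. The summed atrial to ventricular ratio of 1.00 was 1.115 per all gene UMIs, 0.8841 with equal weight per cell, 0.9212 from reads, 1.03 in cells of at least 20000 UMIs, and 0.9516 to 1.037 with 1 library left out. Library A alone gave 1.121, C 0.917 and D 0.8606. The count of 8 members at least 1.5-fold apart was 13 per all gene UMIs, 23 with equal weight (2 higher, 21 lower), 22 from reads (7 higher, 15 lower), 17 without cells over 2% non-myocyte RNA, 5 without top cells, 4 with a pseudocount of 5 CPM, 12 to 16 with 1 library left out, and 25, 17, 32 and 46 in libraries A to D alone. The summed LA to RA ratio of 0.993 became 0.935 (TMM), 0.9511 (median-of-ratios), 1.066 with equal weight, 0.9308 without cells over 2% non-myocyte RNA, 1.211 without top cells, 0.9277 to 1.046 with 1 library left out, and 1.085, 0.866, 0.7263 and 1.426 in libraries A to D alone. Its count of 28 was 45 from reads, 11 with at least 100 UMIs, 23 to 31 with 1 library left out, and 14 and 2 in libraries C and D alone. The summed LV to RV ratio of 0.998 was 1.035 per all gene UMIs, 0.9447 (TMM), 0.9305 (median-of-ratios), 0.9737 without cells over 2% non-myocyte RNA, 0.9665 to 1.044 with 1 library left out, and 0.8598, 0.9529, 1.081 and 1.097 in libraries A to D alone. Its count of 5 was 9 under TMM, median-of-ratios or equal weight, 9 without cells over 2% non-myocyte RNA, 20 from reads, 7 to 13 with 1 library left out, and 13, 18, 25 and 26 in libraries A to D alone. The summed fixed to live ratio of 1.01 was 1.197 per all gene UMIs, 0.9688 per coding UMIs, 1.423 with TMM, 1.491 with median-of-ratios factors and 1.173 from reads, and its count of 32 was 19 without top cells and 15 with at least 100 UMIs. Among named members, equal weight per cell reversed Mrpl46 between LA and RA (1.279) and Mrpl11 (0.9031) and Mrpl34 (2.381) between fixed and live cells, and reads reversed Mrpl15 there (1.337). The causes were not tested, and no share of all genes was computed for these alternatives. RA, with 3159 member UMIs, is the shallowest group, and members with under 10 UMIs in it have intervals several-fold wide.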
